A study of Mus musculus with 8 samples.

Results

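The transcripts described here encode 5 matrix metalloproteinases (Mmp8, Mmp9, Mmp12, Mmp14 and Mmp19), 3 ADAM proteins (Adam8, Adam17 and Adam19) and 2 tissue inhibitors of metalloproteinases (Timp1 and Timp2), taken as a list of names and found by symbol among the 47937 genes of the count tables. All 10 members were found, each under a single Ensembl ID. Bulk RNA was sequenced from BMDCs, the cells that grow out of mouse bone marrow under GM-CSF, in 4 groups of 2 libraries: WT and 3xGrk-/- cells, each untreated or treated with LPS, a cell wall component of gram-negative bacteria that matures DCs. 3xGrk-/- marrow came from mice with Vav-iCre, Grk2 fl/fl and Grk6 fl/fl alleles, in which Cre is driven by a promoter active in blood cell precursors, and with Grk3-/- in the whole animal. The WT mice lacked Cre, and all mice were adults over 8 weeks old on the C57BL6/J background. All groups shared the culture with GM-CSF, and LPS was given at 20 ng/ml for 24 h after 8 days. RNA isolation in technical replicates is described, and no source used here states that the 2 libraries of a group came from separate cultures or animals, so the p-values measure the spread between these libraries only.

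The libraries held 4713305 to 6933358 gene counts each. Grk2, Grk3 and Grk6 had lower levels in each 3xGrk-/- library than in each WT library of the same treatment, at 27.0% (Grk2 with LPS) to 78.1% (Grk3 without LPS) of the WT mean. BMDC cultures hold several cell types. Of 9 DC marker genes and 10 macrophage marker genes all had counts, the summed macrophage level lying between 1018 and 1045 CPM (counts scaled to a common library total) in untreated WT, 1500 and 1555 CPM in untreated 3xGrk-/-, 407 and 413 CPM in LPS-treated WT and 2787 and 2847 CPM in LPS-treated 3xGrk-/- libraries. The summed DC level was 22650 and 22850, 12190 and 12440, 15180 and 16570, and 13000 and 13240 CPM in the same order of groups. Without LPS, 5 macrophage markers were higher and 4 lower in 3xGrk-/- cells (median log2 fold change 0.09), the lower ones being C1qa, C1qb, C1qc and Fcgr1, and all 10 were higher with LPS. Of the DC markers, 3 were higher (Itgax, Ccr7 and Flt3) and 6 lower without LPS, and 2 were higher and 7 lower with LPS. Of the eosinophil markers, 7 of 8 were lower in 3xGrk-/- cells without LPS and 8 of 8 with LPS. Their summed level was 1257 and 1330 CPM in untreated WT, 67.0 and 74.5 CPM in untreated 3xGrk-/-, 1150 and 1251 CPM in LPS-treated WT and 82.8 and 88.9 CPM in LPS-treated 3xGrk-/- libraries. Of 8 mast cell and basophil markers 4 were tested, with 1 higher and 2 lower without LPS and 2 lower with LPS, and 6 lymphocyte markers summed to at most 0.701 CPM. Mpo, Ccr3, Il5ra and Ctsk in both treatments, and Ctsg, Ms4a2, Ocstamp and Col3a1 with LPS, passed the filter on low counts through 1 genotype only, with both libraries of the other under 10 counts, so the counts of neutrophil, eosinophil, mast cell, osteoclast and stromal markers that hold them give no support for a direction. In bulk RNA, more cells of a type and more RNA per cell cannot be told apart, and this holds for every result below; the part of these markers in the results was not tested.

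Matrix metalloproteinases (MMPs) are zinc-dependent proteases that are made as inactive precursors and cut collagens, elastin, gelatin and many secreted proteins; most are secreted, while a few, such as MMP14, stay on the membrane. ADAM proteins sit in the membrane and release the extracellular part of other membrane proteins, TNF among them. TIMPs bind the active site of these proteases and block it, and TIMP2 also takes part in the activation of pro-MMP2 on MMP14. In myeloid cells these enzymes are known for the passage of cells through tissue and for the remodelling of matrix by macrophages.

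By the GENCODE M21 annotation of GRCm38, the members lie on 8 chromosomes, and their counts are of reads over the exons of the whole gene. On the plus strand lie Mmp8 (ENSMUSG00000005800.2) at 7558456 to 7568485 of chromosome 9 and Mmp12 (ENSMUSG00000049723.14) at 7344381 to 7369499 of chromosome 9. The other MMP genes on this strand are Mmp9 (ENSMUSG00000017737.2) at 164940780 to 164955850 of chromosome 2, Mmp14 (ENSMUSG00000000957.9) at 54431612 to 54445364 of chromosome 14 and Mmp19 (ENSMUSG00000025355.6) at 128790910 to 128800824 of chromosome 10. The plus strand also holds Adam19 (ENSMUSG00000011256.16) at 46055992 to 46147343 of chromosome 11 and Timp1 (ENSMUSG00000001131.11) at 20870166 to 20874735 of chromosome X, the latter inside Syn1, which runs on the opposite strand and shares no exonic base with it. On the minus strand lie Adam8 (ENSMUSG00000025473.16) at 139978932 to 139992562 of chromosome 7, Adam17 (ENSMUSG00000052593.15) at 21323509 to 21373632 of chromosome 12 and Timp2 (ENSMUSG00000017466.9) at 118301069 to 118355740 of chromosome 11. Adam8 shares 46 exonic bases with Gm16201 on the opposite strand.

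All 5 MMP genes were higher in 3xGrk-/- than in WT BMDCs, without and with LPS, by 3.6-fold to 14.4-fold. Both TIMP genes were higher as well. Of the ADAM genes, Adam17 was slightly higher, Adam19 was lower, and Adam8 was nearly level. In untreated cells all 10 members passed an adjusted p of 0.05 in edgeR's quasi-likelihood test, 8 higher and 2 lower, where 44.7% of the 12000 genes tested did so (22.1% higher and 22.7% lower). With LPS 9 members passed, 8 higher and 1 lower, against a background of 48.6% of 11830 genes (24.7% higher and 24% lower). A log2 fold change of 1 or more was reached by 7 members in each treatment, beside 4.82% of all genes without and 10.3% with LPS, and Adam19 alone had −1 or less in each, beside 7.22% and 6.43%. The median log2 fold change of the members was 2.0 without and 2.17 with LPS, that of all genes 0.00 and −0.01. The ranges of the genotypes did not overlap for any member in either treatment, a property that 69.1% and 72.6% of all genes shared. All 10 members passed the filter on low counts in both fits. Timp1 without LPS did so through the 3xGrk-/- libraries alone, so its part in the counts without LPS gives no support for a direction.

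**Figure D1:**
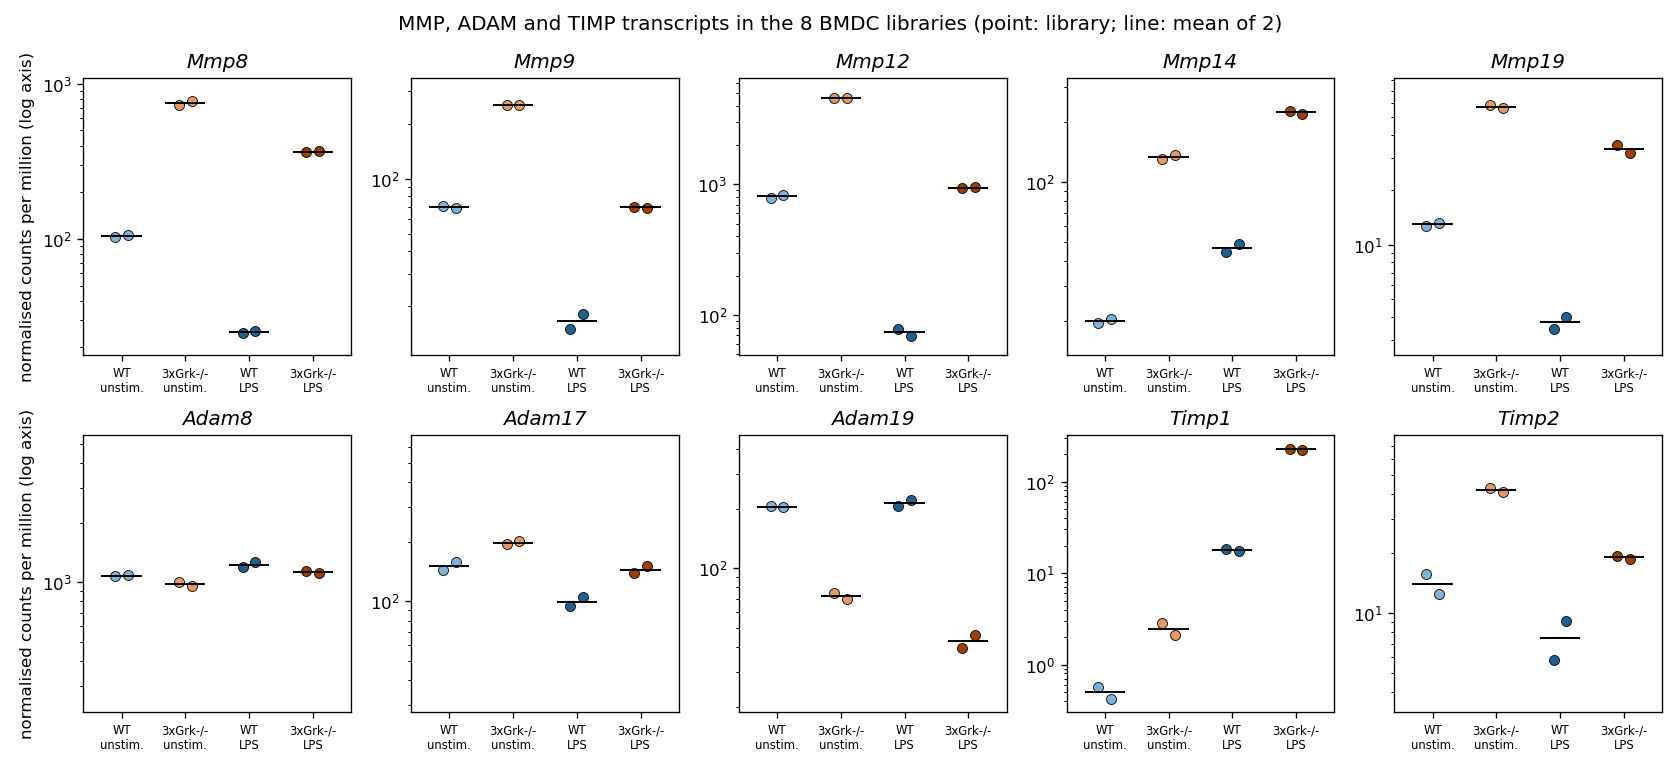
Normalised counts (CPM) of each gene (log axis, whose range differs between panels) in the 8 libraries; points are libraries, lines the mean of 2. The orange points (3xGrk-/-) lie above the blue points (WT) of the same treatment for the MMP and TIMP genes and for Adam17, and below them for Adam8 and Adam19.

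Mmp12 encodes macrophage elastase, a secreted protease of elastin. Its level was 786 and 836 CPM in the untreated WT libraries, 4617 and 4603 CPM in untreated 3xGrk-/-, 78.6 and 68.8 CPM in LPS-treated WT and 933 and 958 CPM in LPS-treated 3xGrk-/- libraries. Whether knockout cells with LPS or WT cells without it had more Mmp12 depends on the scaling, since by library size alone they had 846 and 852 against 872 and 923 CPM. The log2 fold change between genotypes was 2.51 (SE 0.0288) without LPS, with an adjusted p below the smallest value that the software holds, and 3.68 (SE 0.0735, adjusted p = 1.28e-19) with LPS.

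Mmp8 encodes the collagenase that is stored in neutrophil granules. In untreated cells it had 103 and 106 CPM in WT and 727 and 773 CPM in 3xGrk-/- libraries, a difference of 2.84 on the log2 scale (SE 0.0462, adjusted p again below the smallest value held). With LPS the levels were 24.9 and 25.7 CPM against 362 and 367 CPM (log2 fold change 3.85, SE 0.0797, adjusted p = 2.21e-19). The order of the 4 groups, untreated and LPS-treated 3xGrk-/- above untreated and LPS-treated WT cells, had no overlap between neighbours, also by library size alone. Of the 14 neutrophil marker genes, 7 were lower and 1 higher (Lcn2) in untreated 3xGrk-/- cells, and with LPS 9 of 13 tested were lower and 2 higher (Lcn2 and Csf3r). Those lower include Mpo and, with LPS, Ctsg, which passed the filter on low counts through WT libraries only, so these counts give no support for a direction. The granule genes Camp (−1.14 and −1.37 without and with LPS) and Ltf (−0.45 and −0.53) were lower in 3xGrk-/- cells, and Ngp was lower with LPS (−0.80) and had −0.03 without it (adjusted p = 0.734). The summed neutrophil level was 823 and 868 CPM in untreated WT, 636 and 649 CPM in untreated 3xGrk-/-, 702 and 786 CPM in LPS-treated WT and 1782 and 1797 CPM in LPS-treated 3xGrk-/- libraries, and Lcn2, also a granule gene and higher without and with LPS (0.26 and 2.14), made up 1562 CPM of the last. The part of neutrophils in the result was not tested.

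Mmp9, the gene of gelatinase B, was counted at 70.7 and 69.4 CPM in untreated WT and at 252 and 251 CPM in untreated 3xGrk-/- libraries. After LPS it had 15.1 and 18.1 CPM in WT and 69.8 and 69.4 CPM in 3xGrk-/- cells. The level of LPS-treated knockout cells lay within that of untreated WT cells, but below it when scaled by library size alone (61.7 and 63.3 against 76.6 and 78.5 CPM). The log2 fold change between genotypes was 1.85 (SE 0.0573, adjusted p = 5.36e-221) without and 2.06 (SE 0.116, adjusted p = 3.29e-12) with LPS. Mmp9 is abundant in neutrophils and in osteoclasts. Of the osteoclast markers, 4 of 5 tested were higher in 3xGrk-/- cells in both treatments, among them Acp5 (1.95 and 2.1), and Nfatc1 was lower (−0.40 and −0.67). Ctsk in both treatments and Ocstamp with LPS passed the filter on low counts through 3xGrk-/- libraries only, so this count gives no support for a direction. The untested Calcr had at most 1 count in any library. The summed osteoclast level was 139 and 148 CPM in untreated WT, 190 and 202 CPM in untreated 3xGrk-/-, 98.0 and 102 CPM in LPS-treated WT and 268 and 278 CPM in LPS-treated 3xGrk-/- libraries; the part of such cells in the result was not tested.

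Mmp14 encodes the membrane collagenase MT1-MMP, which activates pro-MMP2 on the cell surface. It was counted at 19.5 and 20.3 CPM in untreated WT, 130 and 137 CPM in untreated 3xGrk-/-, 44.1 and 48.7 CPM in LPS-treated WT, and 228 and 221 CPM in LPS-treated 3xGrk-/- libraries. It was the only MMP member that was highest with LPS, in both genotypes. The genotype effect was 2.74 on the log2 scale (SE 0.0880, adjusted p = 1.77e-206) without and 2.27 (SE 0.0793, adjusted p = 1.05e-15) with LPS. Mmp2, whose product is a substrate of MMP14, had 25 to 37 counts in the untreated libraries and had a log2 fold change between genotypes that did not pass the threshold without LPS (0.13, adjusted p = 0.72), and had a log2 fold change of −0.60 with LPS (adjusted p = 0.0431).

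Mmp19, the gene of a secreted protease of basement membrane proteins, had 12.6 and 13.2 CPM in untreated WT, 58.3 and 55.9 CPM in untreated 3xGrk-/-, 3.45 and 4.02 CPM in LPS-treated WT and 35.3 and 31.8 CPM in LPS-treated 3xGrk-/- libraries. The raw counts in LPS-treated WT cells were 19 and 26. On the log2 scale it was higher by 2.14 (SE 0.120, adjusted p = 3.47e-69) without and 3.15 (SE 0.186, adjusted p = 7.14e-12) with LPS. On the opposite strand, exons of Tmem198b and Gm47093 share 1001 bases with those of Mmp19, and the strand setting of the counting is not given in the sources used here.

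Timp1, the gene of the secreted inhibitor of most MMPs, was close to the floor in untreated cells. It had 3 and 3 raw counts in WT and 19 and 12 in 3xGrk-/- libraries, a ratio of 5.14 with an exact 95% interval of 2.11 to 15.1 that covers counting error only. The adjusted p of this difference was 9.19e-05 in edgeR's test and 0.0795 in DESeq2, where the call was lost. With LPS, Timp1 rose to 18.3 and 17.5 CPM in WT and to 229 and 223 CPM in 3xGrk-/- libraries. The log2 fold change between genotypes was then 3.66 (SE 0.0905, adjusted p = 3.58e-18). Fibroblasts also make TIMP1. Of the stromal marker genes, Col3a1 passed the filter on low counts through LPS-treated 3xGrk-/- libraries only, so a count that holds it gives no support for a direction. Of all 7, none was tested without LPS, and with LPS 4 were higher and 1 lower in 3xGrk-/- cells. Their summed level was at most 3.22 CPM in untreated libraries, 14.5 and 24.9 CPM in LPS-treated WT and 140 and 150 CPM in LPS-treated 3xGrk-/- libraries, of which Dcn made up 120 CPM; the part of such cells in the result was not tested.

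Timp2, whose product inhibits MMPs and links pro-MMP2 to MMP14, had 15.7 and 12.5 CPM in untreated WT and 42.8 and 41.0 CPM in untreated 3xGrk-/- libraries. After LPS it had 5.81 and 9.13 CPM against 19.4 and 18.8 CPM. The genotypes differed by 1.60 on the log2 scale (SE 0.127, adjusted p = 8.16e-35) without and 1.33 (SE 0.195, adjusted p = 7.4e-06) with LPS. The LPS-treated WT libraries had 32 and 59 raw counts, and the genotypes still did not overlap. Of the other inhibitors on the list, Timp3 had 5 and 5 counts in untreated 3xGrk-/- against 23 and 32 in untreated WT libraries. It passed the filter on low counts through WT there, so its test gives no support for a direction. With LPS it had 7 and 17 against 57 and 71 counts (log2 fold change −2.37, adjusted p = 1.08e-06). Reck, a membrane-bound inhibitor, passed the threshold in neither treatment (0.34 and −0.50, adjusted p = 0.221 and 0.153). Timp4 and A2m were at 0 in every library.

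Adam17 encodes the protease that releases TNF from the cell surface. Its level was 145 and 157 CPM in untreated WT, 194 and 201 CPM in untreated 3xGrk-/-, 94.3 and 105 CPM in LPS-treated WT and 139 and 151 CPM in LPS-treated 3xGrk-/- libraries. The differences between genotypes were small but larger than the spread between libraries, at 0.38 on the log2 scale (SE 0.0514, adjusted p = 1.48e-12) without and 0.54 (SE 0.0780, adjusted p = 7.2e-06) with LPS. The levels of untreated WT and LPS-treated 3xGrk-/- cells overlapped, but not by library size alone (161 and 174 against 126 and 134 CPM). Exons of Iah1 and Gm22766 on the opposite strand share 311 bases with those of Adam17.

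Adam19, the gene of meltrin beta, was the member with the clearest fall. It had 207 and 203 CPM in untreated WT and 74.7 and 69.6 CPM in untreated 3xGrk-/- libraries, and 205 and 220 CPM against 39.8 and 45.9 CPM with LPS. The effect on the log2 scale was −1.50 (SE 0.0594, adjusted p = 3.99e-137) without and −2.31 (SE 0.0849, adjusted p = 2.44e-15) with LPS. Noncoding genes on the opposite strand, Gm16033 and Gm16034, share 1067 exonic bases with Adam19.

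Adam8, the gene of a protease on the surface of leukocytes, changed least between genotypes. It was counted at 1070 and 1092 CPM in untreated WT, 1008 and 959 CPM in untreated 3xGrk-/-, 1191 and 1266 CPM in LPS-treated WT and 1142 and 1107 CPM in LPS-treated 3xGrk-/- libraries. Without LPS its genotype effect was −0.14 (log2, SE 0.0335, adjusted p = 0.000164). With LPS it was −0.13 (SE 0.0541, adjusted p = 0.0561) and became a call when all 8 libraries were fitted together (adjusted p = 0.0211), when counts were scaled by library size alone (adjusted p = 0.00407), without Gm42418 (adjusted p = 0.0494) and without WT replicate 1 (adjusted p = 0.00248). In the other settings it stayed above the threshold, among them without WT replicate 2 (−0.074, adjusted p = 0.178), without 3xGrk-/- replicate 2 (−0.093, adjusted p = 0.524), in DESeq2 (adjusted p = 0.186) and with a replicate block (adjusted p = 0.177).

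**Figure D2:**
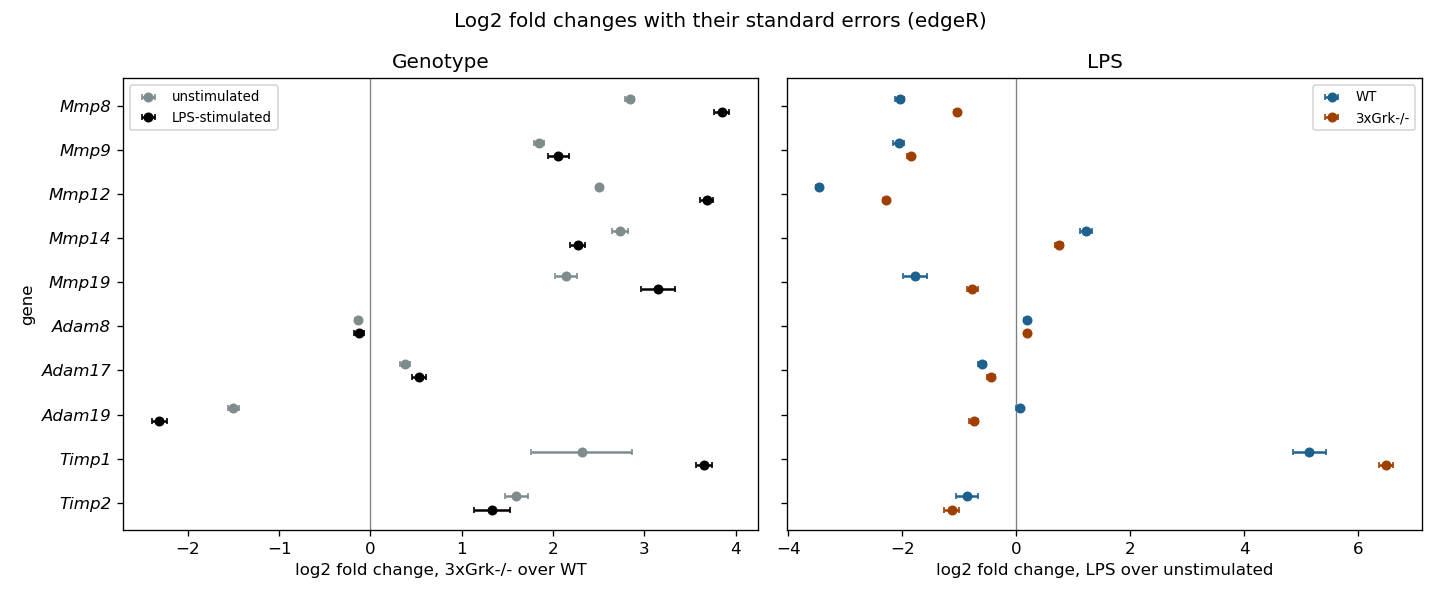
Log2 fold changes with their standard errors, left for 3xGrk-/- over WT without and with LPS, right for LPS over untreated in WT and in 3xGrk-/- cells. Adam19 lies at −1.50 and −2.31 on the left, and Timp1 at 5.15 and 6.49 on the right.

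In both genotypes, 4 of the 5 MMP members were lower and Mmp14 and Timp1 were higher with LPS. Of the 6 other MMP genes tested, 3 were higher and 1 lower with LPS in WT, and 4 were higher and 1 lower in 3xGrk-/- cells. Mmp28, among the 4, had 0 counts in both untreated 3xGrk-/- libraries and passed the filter on low counts through LPS-treated 3xGrk-/- libraries only. The count in 3xGrk-/- cells therefore gives no support for a direction. In WT cells 9 members passed the threshold, 3 higher and 6 lower, against a background of 60.3% of 12541 genes (29.5% higher and 30.8% lower), and 9 had groups that did not overlap, beside 78.2% of all genes. Timp1, among those higher, had 3 counts in each untreated WT library and passed the filter on low counts through the other groups only. Its part in the WT counts gives no support for a direction. In 3xGrk-/- cells all 10 passed, 3 higher and 7 lower, against 55.4% (28% higher and 27.4% lower), and none had groups that overlapped, beside 77.6% of all genes without overlap. These comparisons use the same libraries as those between genotypes and join tables of untreated and LPS-treated cells; whether these were sequenced together is not given in the sources used here, so a run and LPS cannot be told apart within a genotype.

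In WT cells Mmp12 fell by 3.46 on the log2 scale (SE 0.0561, adjusted p = 2.57e-27), and it fell by 2.29 in 3xGrk-/- cells (SE 0.0485, adjusted p = 6.69e-25). Mmp8 fell by 2.05 and by 1.04, Mmp9 by 2.07 and by 1.86 and Mmp19 by 1.78 and by 0.77 on the same scale. Mmp14 rose, by a log2 fold change of 1.22 (SE 0.103) in WT and 0.75 (SE 0.0630) in 3xGrk-/- cells. Timp1 rose most, from 6 counts in the untreated WT libraries together to 214 with LPS, a ratio of 36.8 (exact 95% interval 16.65 to 101.5), and from 31 to 2631 counts in 3xGrk-/- libraries, a ratio of 90.5 (63.6 to 133.5). Timp2 fell by 0.87 and by 1.13 on the log2 scale, opposite to Timp1.

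Among the ADAM genes, Adam17 fell by 0.60 in WT and by 0.45 in 3xGrk-/- cells on the log2 scale (adjusted p = 1.78e-08 and 1.21e-06). Adam19 did not pass the threshold in WT (log2 fold change 0.06, SE 0.0619, adjusted p = 0.433; −0.16 when scaled by library size alone, adjusted p = 0.0284) and fell by 0.75 in 3xGrk-/- cells (adjusted p = 1.76e-08). Adam8 had a log2 fold change of 0.18 in WT and 0.19 in 3xGrk-/- cells (adjusted p = 0.000983 and 0.000716), which turned to −0.031 and −0.025 when scaled by library size alone (adjusted p = 0.577 and 0.671).

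The genotype effect itself was compared between treatments in the fit of all 8 libraries, in which 5 members passed the threshold, 3 with a positive and 2 with a negative difference, beside 32.5% of all genes (16.5% and 16%). The difference of log2 fold changes, with LPS minus without, was 1.18 for Mmp12 (SE 0.0718, adjusted p = 2.21e-13), 1.01 for Mmp8 (SE 0.0951, adjusted p = 1.58e-09) and 1.0 for Mmp19 (SE 0.240, adjusted p = 0.00152). It was −0.47 for Mmp14 (SE 0.122, adjusted p = 0.00346) and −0.81 for Adam19 (SE 0.106, adjusted p = 5.71e-07). For the other members the difference did not pass, at 0.21 for Mmp9 (SE 0.128), 0.01 for Adam8 (SE 0.0644), 0.15 for Adam17 (SE 0.0951), 1.34 for Timp1 (SE 0.631) and −0.27 for Timp2 (SE 0.240). The wide error of Timp1 goes with its 3 counts per untreated WT library.

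Levels of different genes were compared per kb of exon, the union of all annotated exons. In untreated WT cells Adam8 was highest with 233 CPM per kb, followed by Mmp12 with 112 and Mmp8 with 43.1, while Timp1 was lowest with 0.559. In untreated 3xGrk-/- cells Mmp12 led with 637 CPM per kb, ahead of Mmp8 with 309 and Adam8 with 212. In LPS-treated WT cells Adam8 led again with 265 CPM per kb, and the next, Adam19, had 29.9. In LPS-treated 3xGrk-/- cells Timp1 with 254 CPM per kb stood beside Adam8 with 242, above Mmp8 with 150 and Mmp12 with 131. The place of Adam19 in these orders was 4 and 2 in WT cells and 9 in 3xGrk-/- cells of either treatment.

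**Figure D3:**
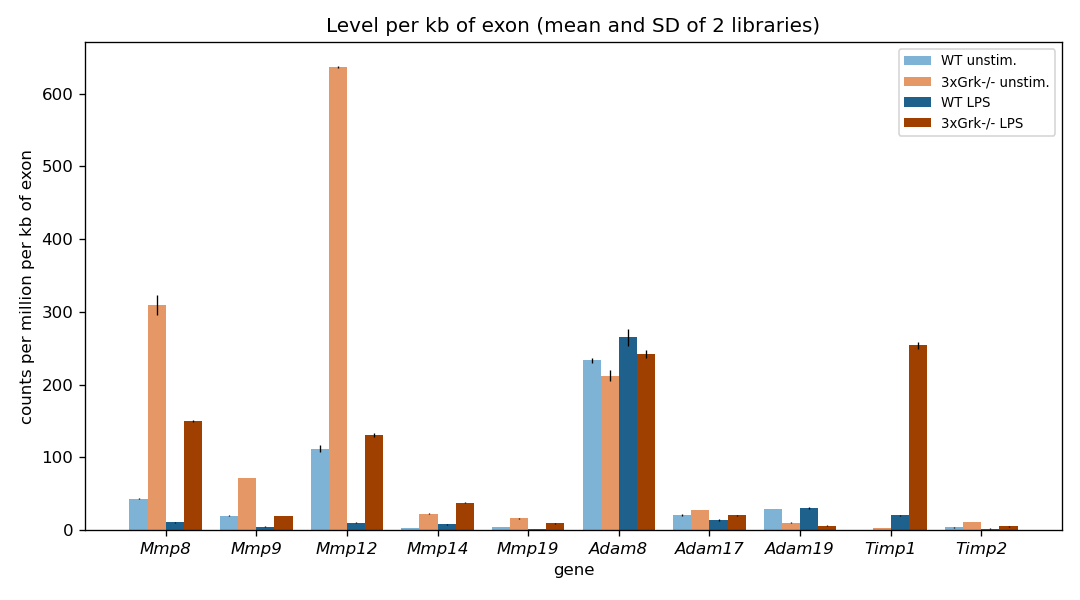
CPM per kb of exon for each gene in the 4 groups (bars: mean of 2 libraries; error bars: SD). Mmp12 of untreated 3xGrk-/- cells is the tallest bar at 637, Timp1 is visible only with LPS, and the 4 bars of Adam8 lie between 212 and 265.

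Mmp8 and Mmp12 lie in a run of 10 MMP genes on chromosome 9 (GRCm38, 7272514 to 7699585, 427.1 kb), with 214.1 kb between their starts. Only 3 genes of this run had more than 100 counts in any library, Mmp12, Mmp8 and the collagenase gene Mmp13, and 6 had at most 10 counts in every library; they are Mmp1a and Mmp1b, at 0 in every library, Mmp3, Mmp7, Mmp10 and Mmp20. Mmp13 had 36 and 36 counts in untreated WT, 263 and 222 in untreated 3xGrk-/-, 65 and 72 in LPS-treated WT and 1050 and 1188 in LPS-treated 3xGrk-/- libraries. Its log2 fold change between genotypes was 2.74 (adjusted p = 1.15e-65) without and 4.06 (adjusted p = 3.27e-18) with LPS. Unlike Mmp8 and Mmp12, Mmp13 was higher with LPS than without in both genotypes (adjusted p = 6.55e-05 in WT and 5.93e-20 in 3xGrk-/-). Mmp27, the neighbour of Mmp8, had 1 and 1 counts in untreated WT against 12 and 11 in 3xGrk-/- libraries, a ratio of 11.4 (exact 95% interval 2.83 to 100), and 2 and 4 against 58 and 58 with LPS. It passed the filter on low counts through the 3xGrk-/- libraries only. Between Mmp12 and Mmp8 lie Mmp1b, Mmp3, Mmp1a and Mmp10, with at most 5 counts in any library. Exons of Mmp12 and Mmp1b share 157 bases on opposite strands, and Mmp1b had no count.

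**Figure D4:**
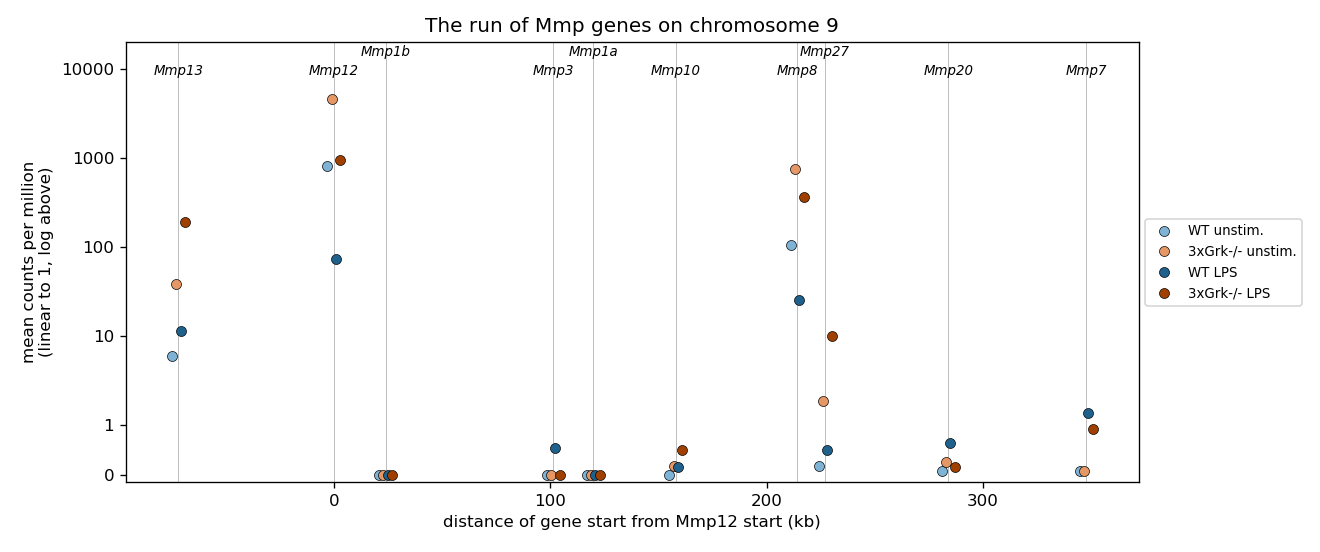
Mean CPM (2 libraries a group; axis linear up to 1 and logarithmic above) of the 10 MMP genes on chromosome 9, placed by the distance of their starts from that of Mmp12 in kb. Mmp12 and Mmp8 are highest in untreated 3xGrk-/- cells, at 4610 and 750.1 CPM, and Mmp13 and Mmp27 in LPS-treated 3xGrk-/- cells, at 192 and 9.97 CPM, while Mmp7 has 1.37 CPM in LPS-treated WT cells.

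Sequences around the starts of 8 members, from 250 bases before to 50 bases after each RefSeq start, were searched on both strands for motifs of factors that are known to act on protease genes of myeloid cells. Those of Mmp8 and Mmp12, which were higher in 3xGrk-/- cells, and of Adam19, which was lower, are shown as examples of both directions, as lower case letters with the motifs in capitals (GRCm38.p6, RefSeq, plus strand). The window of Mmp8 is chr9:7558179-7558478, those of the upstream and downstream starts of Mmp12 are chr9:7344147-7344446 and chr9:7347124-7347423, and that of the middle of 3 starts of Adam19 is chr11:46055734-46056033.
Mmp8: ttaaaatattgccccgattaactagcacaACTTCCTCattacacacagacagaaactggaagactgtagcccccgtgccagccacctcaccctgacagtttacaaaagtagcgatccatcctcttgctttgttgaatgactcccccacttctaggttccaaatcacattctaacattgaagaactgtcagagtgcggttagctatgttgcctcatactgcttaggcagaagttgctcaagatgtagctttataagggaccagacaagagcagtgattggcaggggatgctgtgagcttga
Mmp12 upstream start: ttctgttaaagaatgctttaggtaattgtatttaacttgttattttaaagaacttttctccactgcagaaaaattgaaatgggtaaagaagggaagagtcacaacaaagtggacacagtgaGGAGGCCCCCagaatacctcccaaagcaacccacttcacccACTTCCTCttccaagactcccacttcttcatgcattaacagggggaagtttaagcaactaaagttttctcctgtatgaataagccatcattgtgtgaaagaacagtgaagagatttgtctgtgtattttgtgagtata
Mmp12 downstream start: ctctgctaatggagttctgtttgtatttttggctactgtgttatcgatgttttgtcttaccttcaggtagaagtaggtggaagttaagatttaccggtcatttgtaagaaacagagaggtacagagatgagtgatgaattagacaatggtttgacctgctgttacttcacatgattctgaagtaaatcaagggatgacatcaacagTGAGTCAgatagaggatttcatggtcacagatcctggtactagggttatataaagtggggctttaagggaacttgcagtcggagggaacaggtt
Adam19 middle start: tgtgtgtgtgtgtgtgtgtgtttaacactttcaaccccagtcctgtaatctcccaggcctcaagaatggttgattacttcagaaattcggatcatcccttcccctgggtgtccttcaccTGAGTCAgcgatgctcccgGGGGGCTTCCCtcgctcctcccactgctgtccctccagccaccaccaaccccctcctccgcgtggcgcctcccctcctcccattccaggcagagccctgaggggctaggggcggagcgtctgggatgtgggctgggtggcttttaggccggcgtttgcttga

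The core of the PU.1 site, GAGGAAGT, was found on the minus strand at position −221 of Mmp8 and at −88 of the upstream start of Mmp12, where 3.2% of all 32851 windows of this length hold it. A kappaB motif lay at −129 of the same Mmp12 start and, in overlapping matches, at −112 and −111 of Adam19, and 8.46% of all windows hold such a motif. The AP-1 motif TGANTCA was found at −44 of the downstream start of Mmp12 and at −131 of Adam19 (7.81% of all windows), and the E-box CACGTG at −130 of the first start of Adam19 (7.15%). The AP-1 motif and the E-box read alike on both strands, and no motif overlapped another kind. The windows of Mmp14, Adam8, Adam17, Timp1 and Timp2 held none of these letters, which says nothing of sites elsewhere. The counts per gene do not show which start was used.

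Other genes of the system were described from lists. Over all genes tested, 22.1% were higher and 22.7% lower in 3xGrk-/- cells without LPS, and 24.7% and 24% with LPS. These shares also stand beside the marker counts above. In these lists Mmp27 in both treatments, Adam12, Timp3 and Fosl1 without LPS, and Mmp28, Adam33, Adamts6, Adamts9, Areg and Fos with LPS had under 10 counts in both libraries of the lower group and passed the filter on low counts through the group where they are high, so the counts of list genes that hold them give no support for a direction. Of 18 other MMP genes, 3 were at 0 and 8 had at most 3 counts in every library; among 5 tested without LPS 3 were higher and 1 lower in 3xGrk-/- cells, and among 6 tested with LPS 3 were higher and 1 lower. Mmp25, a membrane-anchored MMP of leukocytes, was the most abundant with 360 CPM in untreated WT and 427 CPM in untreated 3xGrk-/- cells (0.25 on the log2 scale, adjusted p = 1.58e-08), and had 793 and 782 CPM with LPS (log2 fold change −0.02, adjusted p = 0.771). Mmp23 was lower without LPS (−0.26, adjusted p = 0.0372). Mmp28 had 1 and 2 counts in LPS-treated WT against 39 and 35 in LPS-treated 3xGrk-/- libraries, a ratio of 25.3 (exact 95% interval 8.33 to 125.5), while without LPS it had 6 and 4 counts in WT and 0 in both 3xGrk-/- libraries.

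Of 10 other ADAM genes, 6 were tested in each treatment, with 3 higher and 3 lower in 3xGrk-/- cells without LPS and 4 higher and 2 lower with LPS. Adam9 was higher without and with LPS (1.03 and 0.76, adjusted p = 7.74e-48 and 1.06e-07), while Adam23 was lower without LPS (−1.07, adjusted p = 1.2e-135). Adam12 had 15 and 21 counts in untreated WT against 5 and 4 in untreated 3xGrk-/- libraries and passed the filter on low counts through WT only. With LPS, Adam23 (−1.46) and Adam11 (−1.04, and −0.39 without LPS) were lower. Adam33 had 3 and 3 counts in LPS-treated WT against 23 and 29 in LPS-treated 3xGrk-/- libraries and passed the filter through the latter only. Adam10, the sheddase closest to ADAM17, had a log2 fold change of 0.18 without and 0.28 with LPS (adjusted p = 0.00589 and 0.00844). Of 19 ADAMTS genes, whose secreted products cut matrix proteoglycans, 2 were tested without and 4 with LPS, and 1 and 4 of these passed. Adamts7 was lower without (−0.96, adjusted p = 0.0031) and higher with LPS (0.95, adjusted p = 0.00596). Adamts6 had 21 and 14 counts in LPS-treated WT against 9 and 5 in LPS-treated 3xGrk-/- libraries and passed the filter through WT only. Adamts9, with 33 and 34 counts in LPS-treated WT and 0 in both 3xGrk-/- libraries, was at least 10.9-fold lower, against a floor of 3 counts per library.

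The plasmin system and proprotein convertases activate several pro-MMPs. Of the 11 listed genes, 4 of 6 tested were higher and 1 lower without LPS, and 6 of 8 were higher and 1 lower with LPS. Plau, the gene of urokinase, had 32.5 CPM in untreated WT and 82.6 CPM in untreated 3xGrk-/- cells (1.33 on the log2 scale, adjusted p = 5.46e-50) and 4.28 against 26.5 CPM with LPS (2.63, adjusted p = 1.85e-10), and its receptor gene Plaur had log2 fold changes of 2.12 and 1.85. Serpinb2, the gene of an inhibitor of urokinase, was higher by 2.65 without and 3.69 with LPS on the log2 scale. Furin, which cuts the precursor of MMP14, was lower by 0.14 and by 0.22 on the log2 scale (adjusted p = 0.0308 and 0.00733). Plg itself was at 0 in every library.

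Of the 9 partner genes of ADAM17 and ADAM10, 4 of 7 tested were higher and 1 lower without LPS, and 3 of 6 were higher and 2 lower with LPS. Rhbdf2, which carries ADAM17 to the surface of immune cells, was higher by 0.37 and by 0.89 on the log2 scale. The tetraspanin genes Tspan14 (0.80 and 0.57) and Tspan5 (0.69 and 0.51) were higher in both treatments, Tspan17 was higher without LPS (0.92; 0.41 with LPS, adjusted p = 0.0619), and Tspan33 was lower in both (−0.30 and −0.96). Among 18 genes of ADAM17 substrates, 14 were tested in each treatment, 7 higher and 4 lower without LPS and 11 higher and 2 lower with LPS. They included Trem2 (2.87 and 4.58), Hbegf (1.77 and 2.76) and Csf1r (0.88 and 3.15), and Lag3 was lower without LPS (−1.30, adjusted p = 0.00292). The 2 lower with LPS were Cx3cl1 (−1.17) and Icam1 (−0.81). Trem2 and Csf1r are also genes of macrophages. Of 11 AP-1 subunit genes, 6 of 10 tested were higher and 1 lower without LPS, and 4 of 9 were higher and 2 lower with LPS. Fos had 7 and 13 counts in untreated WT against 65 and 50 in untreated 3xGrk-/- libraries (2.50), and 6 and 8 against 43 and 42 with LPS. With LPS it passed the filter on low counts through the 3xGrk-/- libraries only. Atf3 (0.58 and 0.77) and Fosl2 (1.0 and 0.18) were higher, and Jund was lower (−0.16 and −0.71).

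The genes whose pattern over the 8 libraries was most like that of a member were taken by Pearson's r of log2 CPM among 9149 genes; the libraries fall into 4 groups of 2, so high values are common. For Mmp12 they were Hvcn1 (r = 0.999), Cd300ld (0.996) and Cd63 (0.995), and 132 genes had r above 0.95. Mmp9 was followed by Adam15 (0.994), Emb (0.993) and Emp3 (0.993), Adam17 by Map1s (0.991), Ass1 (0.990) and Cd63 (0.990), and Timp1 by Dusp1 (0.999), Casp4 (0.999) and Ccrl2 (0.998).

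With 2 libraries a group, no exact permutation test can go below 0.333, and each adjusted p rests on a spread pooled across genes, with a common biological coefficient of variation of 0.0306 without and 0.0573 with LPS. With a coefficient of 0.4 for every gene, Mmp8, Mmp12, Mmp14 and Mmp19 kept their calls between genotypes in both treatments, and Mmp9, Adam19 and Timp1 with LPS only.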

How the data were processed

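Libraries were made by the authors with a stranded mRNA protocol, aligned to mm10 with STAR 2.7.3a and counted per gene with featureCounts 2.0.0 in snakePipes 2.1.0; the strand setting and annotation release are not given in the sources used here. The deposited values are raw counts in 1 table for each treatment, and 0 columns lacked a sample. Groups and replicate numbers came from the sample labels, dose, time and mouse genotype from the study's methods.

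Symbols, exons and coordinates came from GENCODE M21 (GRCm38): 47224 of 47937 IDs matched by ID without version, and unmatched IDs held 0.0847% of counts. Counts were fitted over all genes with edgeR 4.0.16 (R 4.3.3): TMM, filterByExpr with a minimum count of 10, glmQLFit, glmQLFTest, Benjamini-Hochberg threshold 0.05. Genotypes were compared within each table, LPS responses and the interaction in 1 fit of all 8 libraries. CPM use the scaling of that fit, and an SE is the unshrunk log2 fold change over the square root of F. The fits were run on simulated counts with known changes and a single fixed spread for every gene, which does not test the spread between the real libraries. Replicate libraries were not duplicates of each other (chi-square per gene 1.59 to 9.02 over genes with at least 20 counts). Exact intervals of ratios are Clopper-Pearson, conditional on the sum of both groups, and all of them cover counting error only.

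Named beside the 10 members are, of each related list, up to 3 genes per genotype comparison with the largest log2 fold change in size among those called with mean log2 CPM of 1 or more, and the 3 genes most like Mmp9, Mmp12, Adam17 and Timp1 (mean log2 CPM of 3 or more). Mmp2, Reck, Furin, Plg, Adam10, Cx3cl1, Icam1, the second treatment's value of such genes, marker genes and exact zeros were chosen after their values were seen. A withheld item that the rule names is not reported here. The members and lists were chosen with earlier results of these data known. Alternatives were DESeq2 1.42.0, RLE, library size, leaving out Gm42418 (which overlaps ribosomal RNA), other filters, a replicate block, a biological coefficient of variation of 0.4, a joint fit and leaving out each library.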

Additional observations from a re-analysis of the deposited data

Results flagged for a closer look

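The genotype effect differed between untreated and LPS-treated BMDCs for 5 of the 10 members, by the interaction term in edgeR's quasi-likelihood test over all 8 libraries, which 32.5% of all 12541 genes passed. The log2 fold change between genotypes was higher with LPS by 1.01 for Mmp8, by 1.18 for Mmp12 and by 1.0 for Mmp19. It was lower with LPS for Mmp14, at −0.47, and for Adam19, at −0.81. The first 3 fell upon LPS in both genotypes and fell less in 3xGrk-/- cells, and Mmp14 rose in both and rose less in 3xGrk-/- cells. Adam19 fell in 3xGrk-/- cells, and its response in WT cells was 0.06 (−0.16 when scaled by library size alone, adjusted p = 0.0284). None of the 5 kept the call with a biological coefficient of variation of 0.4 for every gene, under which 72 genes of the whole table did.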

How the results depend on the processing

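Beside each member count below stands the count over all genes tested. With a biological coefficient of variation of 0.4 for every gene, in place of the fitted spread, 4 members (448 genes) passed between genotypes without LPS and 7 (782) with LPS, 4 (1110) for LPS in WT, 3 (850) for LPS in 3xGrk-/- cells and 0 (72) for the interaction. DESeq2 called 2831 genes between genotypes without LPS, 3663 with LPS and 2450 for the interaction, where edgeR called 5369, 5754 and 4070. Scaling by library size alone turned the LPS response of Adam8 to −0.031 in WT and −0.025 in 3xGrk-/- cells and that of Adam19 in WT to −0.16, and moved the median of all genes to −0.23 in both LPS responses. Apart from the coefficient of 0.4, single values of members stayed on their side of the threshold in 677 recomputations. Those that were calls kept their direction, while values called in neither fit were counted here whatever their sign. In 5 a value became a call in the same direction, and Timp1 without LPS lost its call in DESeq2 (adjusted p = 0.0795). The other 3 are the turned LPS responses above, of which both of Adam8 lost their call and that of Adam19 became one (adjusted p = 0.0284). Without WT replicate 2 of the LPS group, the interaction of Adam17 became a call (0.24, adjusted p = 0.0377). Leaving out 1 library at a time gave 4253 to 4788 genes between genotypes without LPS, 4460 to 5712 with LPS, 6417 to 7601 and 5844 to 7410 for LPS in WT and 3xGrk-/- cells and 3328 to 4199 for the interaction. A minimum of 10 counts in every library removed Timp1 from the fit of untreated cells and from that of all 8 libraries, and kept it in the fit of LPS-treated cells. Deviations between the 2 libraries of a group were hardly correlated across groups by replicate number (−0.0654 to 0.0718). This cannot exclude a pairing, since replicates that differ little beyond counting error would hardly show it. A replicate block left the member counts at 10, 9, 9, 10 and 5 and gave 5292, 5654, 7438, 6793 and 3884 genes in the order above. Depth limits Timp1 most, with 3 counts in each untreated WT library.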
